A study of Mus musculus with 4 samples.

Results

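Sperm chromatin packaging was followed through 10 genes: Prm1, Prm2, Prm3, Tnp1, Tnp2, Hils1, H1fnt, Hist1h1t, Hist1h2ba and Brdt. They were chosen by name from the 22311 gene symbols in the expression files of mouse testes lacking RFX2, and each was listed as 1 entry in every sample. All 10 passed the filter on low values (2 or more of the 4 samples at an FPKM, a level scaled by transcript length and by the mapped fragments of the sample, of 1 or higher), which 12985 genes passed. The 7 genes read mainly after meiosis, in spermatids, are called the late genes here (Prm1, Prm2, Prm3, Tnp1, Tnp2, Hils1 and H1fnt). Hist1h1t, Hist1h2ba and Brdt, which are already active in meiotic cells, are called the earlier genes.

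During spermiogenesis, the haploid phase of sperm formation, the nucleus gives up most of its histones. Testis histone variants are installed first, in spermatogonia and spermatocytes, and loosen the nucleosome. Transition proteins then take their place in elongating spermatids, and protamines, small arginine-rich proteins, finally pack the DNA tightly. Protamine and transition protein mRNAs are transcribed in round spermatids, stored without translation, and translated days later. CREM, with its coactivator ACT (Fhl5), is the best known activator of these genes and binds a cAMP response element in their promoters.

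The samples were whole testes of 24-day-old male mice, 2 Rfx2-/- and 2 controls, here mutant 1, mutant 2, control 1 and control 2. The mutants carried a conventional deletion, present in every cell of the body, in which a neomycin cassette took the place of the exons for the DNA-binding domain of Rfx2, a transcription factor of the RFX family that binds X-box motifs. The mouse line came from a single targeted embryonic stem cell clone. The sample labels call the controls wild type and give the strain of all 4 as DBA, whereas the methods of the study call the controls heterozygous and give a mixed background of 129/s6 and C57BL/6. If the latter holds, the controls carry 1 deleted allele. The study describes the samples of each genotype as independent biological replicates. Which mouse each sample came from is not given beyond that, so p-values measure only the spread between these samples. In whole testis, fewer cells of a type and less RNA per cell cannot be told apart.

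The targeted gene followed the labels. Rfx2 had an FPKM of 36.7 and 39.8 in mutants 1 and 2, and of 123 and 89.4 in controls 1 and 2 (log2 difference -1.43, standard error 0.19, adjusted p = 0.00617 by limma). Mutant 1 stood apart from mutant 2 in late spermatid RNAs, so results below are given for each mutant sample. Beside the members stood 6 other late spermatid genes, Akap4, Odf1, Smcp, Gapdhs, Oaz3 and Spem1. Some of them act in the sperm tail, mitochondrial capsule or glycolysis. All 6 were at least 2-fold lower in mutant 1 than in mutant 2, against 4.28% of all tested genes. Their summed FPKM was 840 and 2194 in the mutants and 1622 and 1320 in the controls. Summed markers of round spermatids were 322 and 560 in the mutants and 442 and 390 in the controls, those of spermatocytes 646 and 563 against 538 and 576, and those of spermatogonia 29.2 and 25.5 against 20.8 and 31.9. Sertoli cell markers summed to 111 and 93.8 against 73.4 and 109, Leydig cell markers to 417 and 234 against 368 and 134, and macrophage markers to 12.6 and 8.74 against 10.7 and 12.4. Insl3 was the largest part of the Leydig sum in every sample, at 326 and 157 in the mutants and 266 and 51.5 in the controls. Likewise Cldn11 was the largest part of the Sertoli sum, at 74.7 and 64.2 against 49.7 and 73.0. Stra8 was that of the spermatogonia sum, at 15.9 and 15.2 against 10.4 and 17.5. No gene of these lists passed the test, where 2.52% of all tested genes were called lower and 0.308% higher. Their part in the results below was not tested.

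The protamine and transition protein genes are known for short promoters, so the 100 bases before the RefSeq start are shown for the protamine and transition protein genes and 1 earlier gene. Windows of 250 bases before to 50 after the start were available in RefSeq (GRCm38.p6) for all 10 genes, and each stretch printed matched NCBIM37 (mm9), the build of the expression files, at a single place. Stretches read 5′ to 3′ on the gene's strand. Capitals mark TGANNTCA (N is any base), a pattern like the cAMP response element, or TATAA, on either strand. In the Prm2 stretch the capitals read TTATA, since its TATAA is on the opposite strand. The 3 protamine stretches lie at chr16:10796917-10797016, chr16:10792199-10792298 and chr16:10791008-10791107, all on the minus strand.
Prm1: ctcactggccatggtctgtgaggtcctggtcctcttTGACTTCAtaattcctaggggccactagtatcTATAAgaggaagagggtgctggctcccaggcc
Prm2: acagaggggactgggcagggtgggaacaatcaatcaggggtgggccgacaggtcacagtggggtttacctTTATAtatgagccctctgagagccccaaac
Prm3: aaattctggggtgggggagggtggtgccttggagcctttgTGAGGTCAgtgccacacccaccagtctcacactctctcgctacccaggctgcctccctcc
The transition protein stretches lie on the minus strand at chr1:73062474-73062573 and chr16:10788749-10788848.
Tnp1: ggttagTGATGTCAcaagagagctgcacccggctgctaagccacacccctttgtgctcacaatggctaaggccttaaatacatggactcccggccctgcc
Tnp2: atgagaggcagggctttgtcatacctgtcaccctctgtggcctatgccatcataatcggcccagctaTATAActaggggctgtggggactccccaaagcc
The stretch of Hist1h1t, an earlier gene shown for comparison, lies on the plus strand at chr13:23787580-23787679.
Hist1h1t: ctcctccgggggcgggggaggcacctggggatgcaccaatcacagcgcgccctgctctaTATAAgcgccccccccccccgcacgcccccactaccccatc
Searched on both strands, TGANNTCA was present in the windows of 4 of the 10 genes, Prm1, Prm3, Tnp1 and Hils1, against 14.1% of all 32851 windows. In Prm1 it began at position -64 from the start, in Prm3 at -60 and in Tnp1 at -94, while in Hils1 it crossed the start itself. TATAA was present in 5 of 10 windows, those of Prm1, Prm2, Tnp2, Hist1h1t and Hist1h2ba, against 24.9% of all windows. In Prm1 and Tnp2 it lay on the gene's strand from -32 and -33, and in Prm2 on the opposite strand at -30. The X-box was matched in none of the 10 windows, against 1.53% of all. These matches describe letters in the windows only.

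Prm1, Prm2, Prm3 and Tnp2 lie side by side on the minus strand of chromosome 16 in GENCODE vM1 on NCBIM37, Prm1 at 10796419 to 10796979, Prm2 at 10791476 to 10792198, Prm3 at 10790600 to 10791006 and Tnp2 at 10788029 to 10788748. GENCODE places the start of Prm1 within the stretch printed above. Socs1, the cytokine signalling inhibitor beyond the cluster, had an FPKM of 2.74 and 3.17 in the mutants and 2.70 and 1.94 in the controls. Tnp1 lies alone on chromosome 1 (73061657 to 73062473, minus strand).

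The protamine RNAs were far lower in mutant 1 and close to control in mutant 2. Prm1, the protamine shared by all mammals, had an FPKM of 136 in mutant 1, 1195 in mutant 2, 1792 in control 1 and 1266 in control 2. Both mutant samples lay below both controls, but mutant 2 was nearer to control 2 than to mutant 1. Prm2, whose protein is made as a longer precursor and trimmed on the DNA, had 93.4, 969, 1370 and 875 in the same order. Here the groups overlapped, since mutant 2 was above control 2. The mean of the controls was 11.2 times mutant 1 for Prm1 and 12.0 times for Prm2, whereas mutant 2 stood at 0.782 and 0.864 of the control mean. Over the groups, the log2 difference between mutants and controls was -1.89 ± 0.83 (standard error) for Prm1 and -1.86 ± 0.89 for Prm2. With adjusted p = 0.594 and 0.701 by limma after Benjamini-Hochberg adjustment, neither passed the threshold of 0.05. The spread lay mainly between the mutants. Mutant 1 minus mutant 2 was -3.12 for Prm1 and -3.36 for Prm2 on the log2 scale, and control 1 minus control 2 was 0.50 and 0.65. Prm1 and Prm2 kept a similar proportion to each other. The ratio of Prm1 to Prm2 was 1.46 in mutant 1, 1.23 in mutant 2, 1.31 in control 1 and 1.45 in control 2.

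Prm3, which shares the cluster but encodes an acidic protein of the spermatid cytoplasm, ordered the samples differently from Prm1 and Prm2. Its FPKM was 82.7 in mutant 1, 245 in mutant 2, 204 in control 1 and 117 in control 2. Mutant 1 was the lowest and mutant 2 the highest of the 4 samples. The log2 difference between groups was -0.12 (standard error 0.47, limma adjusted p = 1.0). The ratio of Prm1 to Prm3 was 1.65 and 4.87 in the mutants and 8.79 and 10.8 in the controls. Ratios of other genes to Prm3 were not examined.

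The transition proteins resembled the protamines. Tnp1, the main transition protein of the mouse, had an FPKM of 152 in mutant 1, 999 in mutant 2, 1615 in control 1 and 1015 in control 2. Both mutants were below both controls, mutant 2 by a narrow margin from control 2. Tnp2, a zinc-binding transition protein, had 240, 1571, 1810 and 1154, so that mutant 2 lay between the controls. The control mean was 8.63 times mutant 1 for Tnp1 and 6.17 times for Tnp2, and mutant 2 stood at 0.760 and 1.06 of the control mean. Neither passed limma, with log2 differences of -1.71 ± 0.74 for Tnp1 (limma adjusted p = 0.576) and -1.23 ± 0.74 for Tnp2 (limma adjusted p = 0.943). The ratio of Tnp1 to Tnp2 was 0.634 and 0.636 in the mutants, against 0.892 and 0.879 in the controls. This ratio hardly varied within a genotype, although the levels themselves differed 6.55-fold and 6.54-fold between the mutant samples. How often other pairs of genes do so was not examined.

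**Figure D1:**
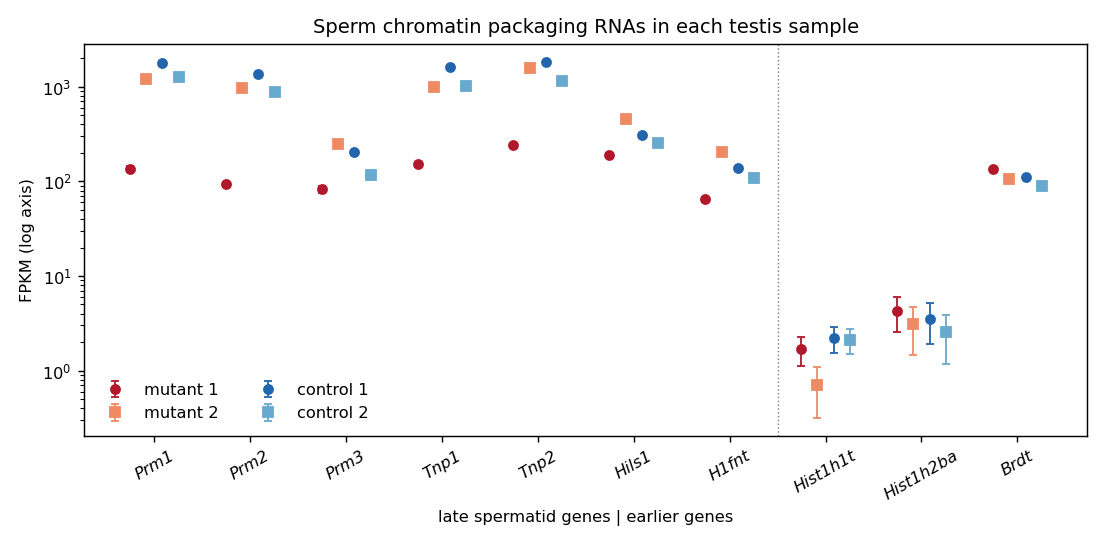
FPKM of the 10 genes in each sample on a logarithmic axis, with the authors' confidence bounds as bars. Mutant 1 is the lowest sample for all 7 late genes, with Prm1 at 136 against 1195 in mutant 2, whereas Brdt lies between 90.0 and 134 in all 4 samples.

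The late linker histones ordered the 4 samples as Prm3 did. Hils1, a spermatid-specific protein related to linker histone H1 (chromosome 11, 94828975 to 94829770, plus strand), had an FPKM of 192 in mutant 1, 461 in mutant 2, 308 in control 1 and 257 in control 2. It overlaps Sgca on the other strand, and reads of the pair may not be separable because the strand setting is not given in the sources used here. Sgca itself was low, between 7.85 and 11.5. H1fnt, the linker histone H1T2 that sits at one pole of the spermatid nucleus (chromosome 15, 98086413 to 98087738, minus strand), had 64.7, 207, 140 and 109. For both genes mutant 1 was the lowest and mutant 2 the highest sample. The log2 differences between groups were 0.08 (standard error 0.37) for Hils1 and -0.09 (standard error 0.46) for H1fnt, with limma adjusted p = 1.0 for each. Mutant 2 stood at 1.63 and 1.66 of the control mean, and Prm3 at 1.53. The ratio of Prm3 to H1fnt was 1.28 and 1.19 in the mutants and 1.46 and 1.08 in the controls, with overlap of the groups.

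The earlier genes showed no such drop in mutant 1. Brdt, a double bromodomain protein that binds acetylated histones and is needed for their removal, lies on chromosome 5 (107760178 to 107816077, plus strand, 19 exons). Its FPKM was 134 and 106 in the mutants and 111 and 90.0 in the controls (log2 difference 0.26, standard error 0.19, limma adjusted p = 1.0). Hist1h2ba, the testis H2B known as TH2B (chromosome 13, 24025637 to 24026025, minus strand), had 4.29 and 3.08 against 3.54 and 2.54 (0.21, standard error 0.24, limma adjusted p = 1.0). Hist1h1t, the linker histone H1t of spermatocytes (chromosome 13, 23787680 to 23788588, plus strand), had 1.68 and 0.710 against 2.20 and 2.13 (-0.57, standard error 0.25, limma adjusted p = 0.621). Its mutants were both below the controls, and here mutant 2 was the lowest sample. This difference was -0.92 with a pseudocount of 0.1, -0.89 without mutant 1 and -0.24 without mutant 2. The confidence bounds of Hist1h1t in mutant 2 ran from 0.316 to 1.10 and those in mutant 1 from 1.12 to 2.24. The bounds correspond to 13 to 46 fragments for Hist1h1t and 14 to 24 for Hist1h2ba, against 825 to 10169 for Prm1, so both histone values are imprecise. Canonical-type histone transcripts often lack a poly(A) tail, and how RNA was selected for the libraries is not given in the sources used here. Of the 50-base windows of the Hist1h2ba transcript, 61.8% occur in no other gene among GENCODE vM1 protein-coding transcripts. Some reads may therefore belong to other H2B copies. The rest of the genome was not searched.

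Over the 10 genes, limma called none lower (2.52% of all tested genes) and none higher (0.308%). At an unadjusted p under 0.05 the count was also 0 in both directions, where 6.68% of tested genes were lower and 2.01% higher, and the smallest were those of Tnp1 (0.0503) and Prm1 (0.0533). Without mutant 2, limma called 6 lower, Prm1, Prm2, Prm3, Tnp1, Tnp2 and H1fnt, against 7.3% of tested genes. Without mutant 1 it called 0, against 3.33%. In both fits the lone mutant sample is assumed to vary like the controls. Both mutants lay below both controls in 3 genes, Prm1, Tnp1 and Hist1h1t, against 15.2% of tested genes, and above both controls in 0, against 16.3%. The median log2 difference between groups was -0.34 over the 10 genes and 0.032 over all tested genes.

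The split between the mutant samples was wider. Counts past 2-fold were taken on log2(FPKM + 1). Mutant 1 was at least 2-fold below mutant 2 in 7 of the 10 genes, all of them late, against 4.28% of tested genes. In 4 genes, Prm1, Prm2, Tnp1 and Tnp2, mutant 1 was at least 2-fold below mutant 2 and both controls (1.98% of tested genes). On this scale no member was at least 2-fold lower in mutant 2 than in both controls (2.33%). None was so in control 2 against control 1 (0.493%). Hist1h1t, near the floor, stood at 0.328 of the control mean in FPKM in mutant 2, but at -0.89 from it on log2(FPKM + 1). Mutant 2 lay above both controls in 3 genes, Prm3, Hils1 and H1fnt (26.2%). The median log2 difference of mutant 1 from the control mean was -2.58 over the late genes and 0.096 over all tested genes, and that of mutant 2 was 0.12 and -0.029. These counts and medians of single samples are descriptions.

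**Figure D2:**
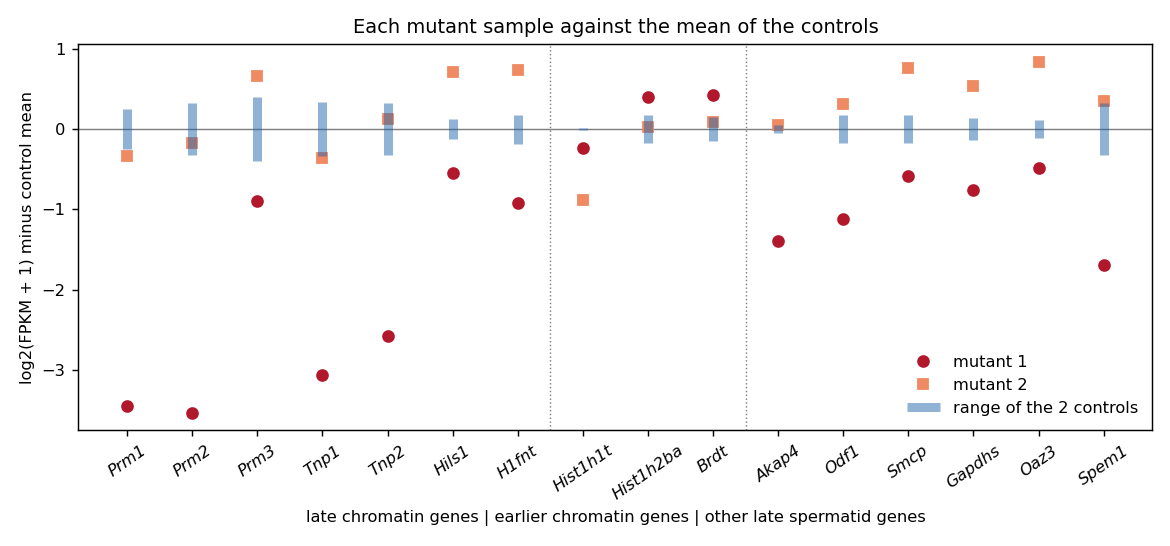
Log2 difference of each mutant sample from the mean of the controls for the 10 genes and 6 other late spermatid genes, on log2(FPKM + 1), with blue bars for the range of the 2 controls. Mutant 1 lies between -3.54 and -2.58 for Prm1, Prm2, Tnp1 and Tnp2, while mutant 2 lies between -0.36 and 0.12 for them.

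Set against the earlier genes in the same sample, the late genes were 3.34 higher on the log2 scale in mutant 1, 6.13 in mutant 2, 5.84 in control 1 and 5.52 in control 2, as the difference of the mean log2(FPKM + 1) of each group. Mutant 2 was the highest sample by this measure, which gives the imprecise Hist1h1t and Hist1h2ba the same weight as Brdt. Against Brdt alone the late genes stood at -0.10, 2.57, 2.59 and 2.34 in the same order, with control 1 the highest. Against all earlier genes, the mean mutant minus control difference was -0.94. It was -2.34 without mutant 2 and 0.45 without mutant 1, so mutant 1 sets its direction. The late genes took 0.267% of the summed FPKM in mutant 1, 1.47% in mutant 2, 1.85% in control 1 and 1.33% in control 2.

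Within the late genes, the RNAs fell into a pair of groups that were named after their values were seen. Relative to H1fnt, the 4 protamine and transition protein genes were lower in both mutants. The ratio of Prm1 to H1fnt was 2.11 in mutant 1 and 5.78 in mutant 2, but 12.8 and 11.6 in the controls. For Prm2 it was 1.44 and 4.68 against 9.78 and 8.04. The Tnp1 ratio was 2.36 and 4.83 against 11.5 and 9.32, and that of Tnp2 was 3.72 and 7.59 against 12.9 and 10.6. In each case mutant 1 was the lowest, mutant 2 lay between it and the controls, and the groups did not overlap. H1fnt itself stood at 1.66 of the control mean in mutant 2, which lowers each ratio there, whereas Tnp2 stood at 1.06. Among all tested genes, 4.98% had a ratio to H1fnt that was lower in both mutants than in both controls. Because the grouping followed the values, no test was made, and an exact permutation test of 2 against 2 samples cannot give a two-sided p below 0.333.

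The 6 other late spermatid genes, by summed FPKM, ordered the samples as H1fnt did, so a comparison with them is not independent of the ratios to H1fnt. The mean log2(FPKM + 1) of Prm1, Prm2, Tnp1 and Tnp2 exceeded that of these 6 genes by 0.48 and 1.97 in mutants 1 and 2. In the controls it did so by 2.78 and 2.49. The same contrast was not computed for all genes. For Prm3, Hils1 and H1fnt the same difference was -0.055 and -0.045 in the mutants and -0.20 and -0.35 in the controls. The 6 reference genes themselves were not uniform, since mutant 1 was -1.70 from the control mean for Spem1 and -0.49 for Oaz3 on the log2 scale.

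**Figure D3:**
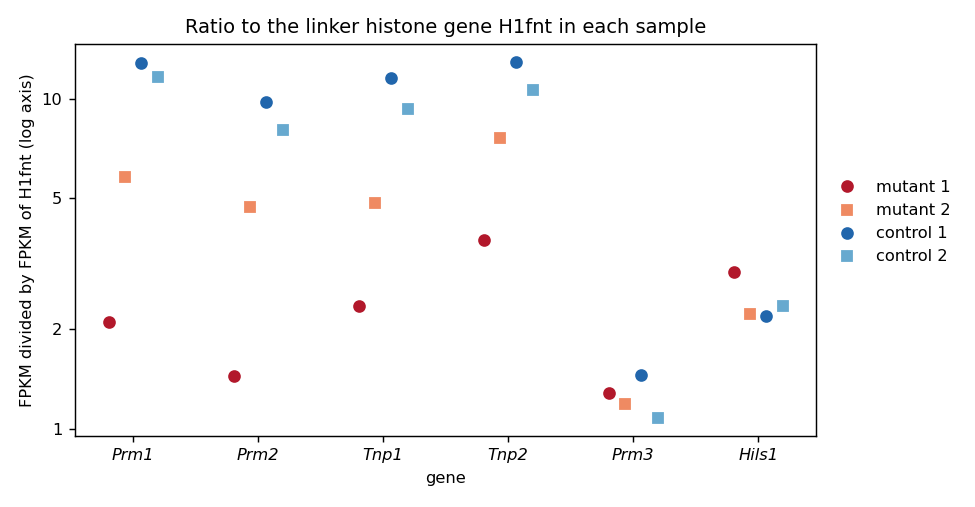
Ratio of the FPKM of each late gene to that of H1fnt in each sample, on a logarithmic axis. For Prm1, Prm2, Tnp1 and Tnp2 mutant 1 is lowest and mutant 2 lies between it and the controls, as with 2.11, 5.78, 12.8 and 11.6 for Prm1, while Prm3 and Hils1 show no such order.

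The genes whose profile over the 4 samples was nearest to that of Prm1, by root mean square distance of centred log2(FPKM + 1), were Prm2 at 0.10, Tnp1 at 0.18, 1700080E11Rik at 0.30, 1110017D15Rik at 0.30 and Tnp2 at 0.37. Prm2, Tnp1 and Tnp2 were thus 3 of the 5 nearest of 12984 genes. H1fnt ranked 420, Prm3 441 and Hils1 960, whereas Hist1h1t ranked 5371, Hist1h2ba 11621 and Brdt 11747. Of the 3 neighbours of Prm1 in its cluster, Prm2 ranked 1, Tnp2 5 and Prm3 441, and Tnp1, on chromosome 1, ranked 2.

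Transcript length was examined because the late genes are short. Their annotated lengths were between 407 bases for Prm3 and 1326 for H1fnt, with Prm1 at 469, Prm2 at 618, Tnp1 at 418, Tnp2 at 549 and Hils1 at 796. Among the 1276 tested genes of 119 to 1079 bases, 14.1% were at least 2-fold lower in mutant 1 than in mutant 2, against 1.18% of genes of 6059 to 28204 bases. The median difference of mutant 1 from mutant 2 was -0.00069 in these shortest genes. It was between 0.084 and 0.14 in the other 9 bins, and 0.12 over all tested genes. From the control mean, the median of mutant 1 was 0.052 in the shortest bin and 0.079 in the longest. That of mutant 2 was 0.052 and -0.050, so the shortest and longest bins lay further apart in mutant 2. The share of short genes at least 2-fold higher in mutant 1 was not computed. Hist1h2ba, at 389 bases the shortest member, was 0.37 higher in mutant 1 than in mutant 2, and Hist1h1t, at 909 bases, was 0.65 higher. Both rest on few fragments, 13 to 36 in the mutants by their bounds. Subtracting the median of 10 length bins changed the group difference of Prm1 from -1.89 to -1.95. The median of the shortest bin was 0.052 from the control mean in each mutant, so this step could shift a member of that bin only slightly. The part of transcript length in the values of the late genes was not tested.

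**Figure D4:**
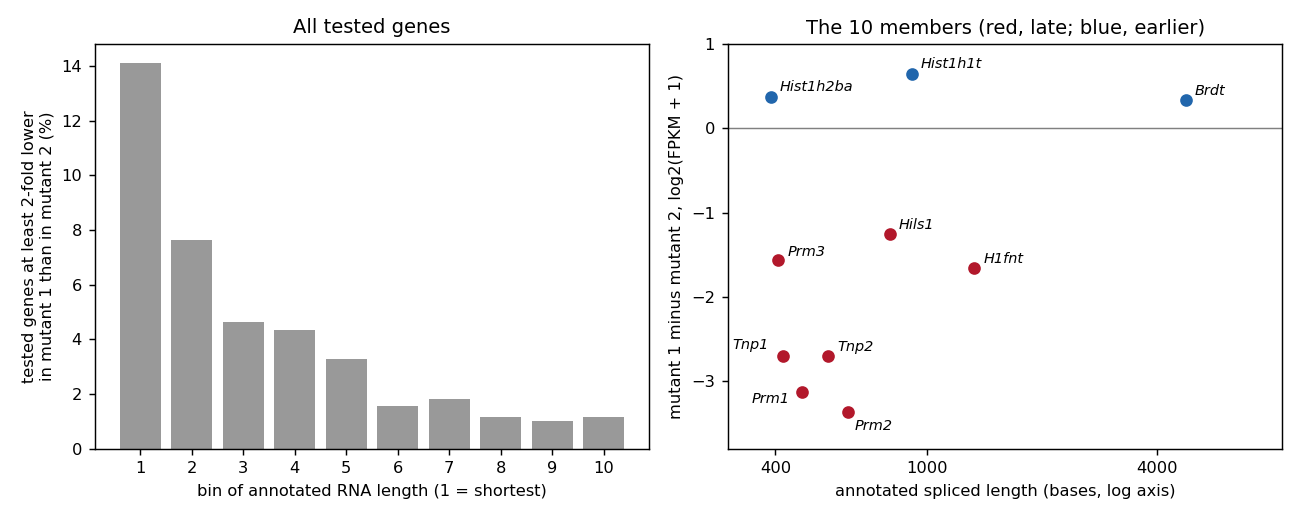
Left, the percentage of tested genes at least 2-fold lower in mutant 1 than in mutant 2 in 10 bins of annotated RNA length, from 14.1% in the shortest to 1.18% in the longest. Right, the difference of mutant 1 from mutant 2 on log2(FPKM + 1) against annotated length on a logarithmic axis for the 10 genes, where the late genes lie between -3.36 and -1.26 and Hist1h2ba, at 389 bases, at 0.37.

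Other genes of histone exchange were examined as lists. These are too short for their counts of calls to differ clearly from the shares over all tested genes. Of 10 further histone variant genes, limma called 1 lower and 0 higher, against 2.52% and 0.308% of all tested genes. The one called was Hist1h4a, an H4 gene of a family of nearly identical copies, with an FPKM of 5.47 and 9.50 in the mutants and 33.3 and 19.5 in the controls (log2 difference -1.68, standard error 0.31, adjusted p = 0.0297). Because reads may be shared among copies, this value is uncertain. H1fx, the somatic linker variant H1.X, had 129 and 123 against 86.5 and 55.6 (0.85, limma adjusted p = 0.131). H2afb1, a short H2A variant of spermatids named after its values were seen, had 53.4 and 186 against 96.2 and 74.7. It was the one gene of the 10 at least 2-fold lower in mutant 1 than in mutant 2 (4.28% of tested genes).

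Of 18 genes known to act in histone removal, among them Rnf8, Psme4, Hspa2 and Kat5, limma called 0 lower and 0 higher. The shares over all tested genes were 2.52% and 0.308%. The median difference of the 18 was 0.031. Chd5, a chromatin remodeller of the exchange, had 12.7 and 33.0 in the mutants against 28.1 and 25.7 in the controls. Camk4, a kinase that phosphorylates protamine 2, had 2.07 and 4.41 against 2.03 and 1.76. Cdyl, a reader and modifier of histone marks, had 19.7 and 52.0 against 38.7 and 34.9. Chd5 and Cdyl were the 2 of the 18 at least 2-fold lower in mutant 1 than in mutant 2 (4.28% of tested genes). Cdyl was named after its values were seen.

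Of 11 regulators of the transcription, storage and translation of these mRNAs, including Crem, Ybx2 and Piwil1, limma also called 0 lower and 0 higher. Over all tested genes 2.52% were called lower and 0.308% higher. The median of the 11 was -0.015. Fhl5, the CREM coactivator, had 23.6 in mutant 1 and 74.8 in mutant 2 against 78.1 and 67.7 (log2 difference -0.77, limma adjusted p = 0.903). It was the single one at least 2-fold lower in mutant 1 than in mutant 2 (4.28% of tested genes). Tbpl1, a TBP-like factor needed in round spermatids, had 98.9 and 83.3 against 89.3 and 75.6.

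**Figure D5:**
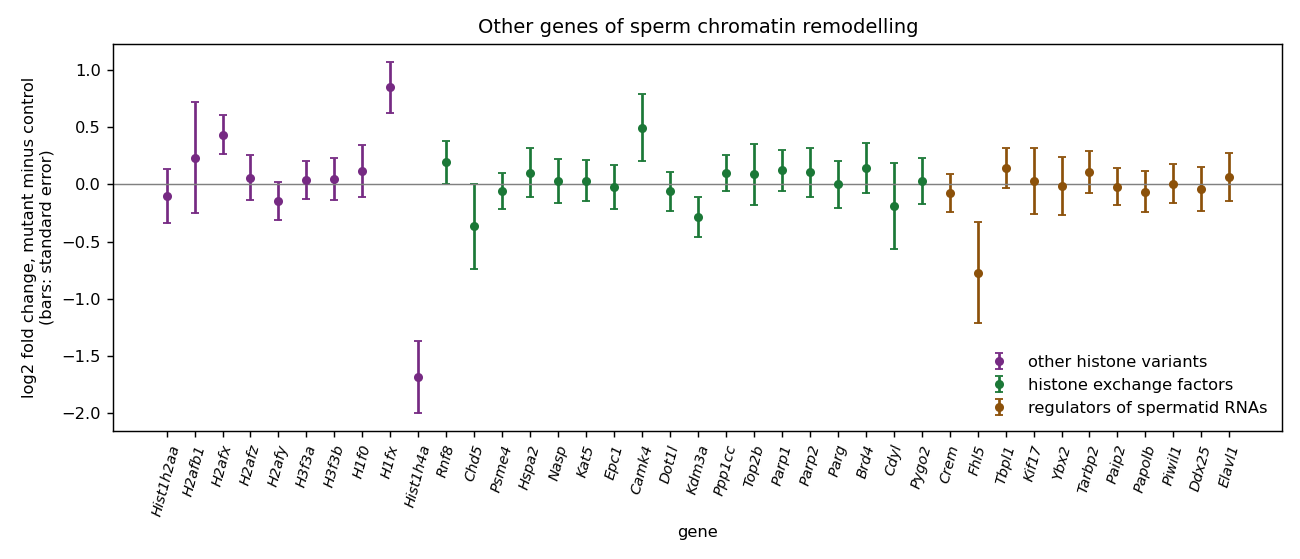
Log2 difference between mutants and controls on log2(FPKM + 1) for the other histone variant genes, the histone exchange genes and the regulators of spermatid RNAs, with standard errors as bars. Most points lie near zero, Hist1h4a at -1.68 is the one gene of the 3 lists that passed limma, and Fhl5 lies at -0.77.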

How the data were processed

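RNA was extracted from whole testes of 24-day-old mice, 2 mutant and 2 control samples. The authors aligned reads to mm9 with TopHat 2.0.6 and estimated gene levels with Cufflinks, and they deposited the FPKM of each gene and its lower and upper confidence bounds, also in FPKM. These values are normalized for length and depth within a sample. How RNA was selected and whether strand was kept are not given in the sources used here. Depth per sample was read from the bounds only as implied fragments, the square of 2 FPKM over the upper half-width, and these cover counting error only.

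FPKM of entries sharing a symbol were summed, 1 was added and the log2 taken. Genes reaching 1 FPKM in 2 or more samples were tested with limma 3.58.1 under R 4.3.3 (lmFit, eBayes with a trend), two-sided, with Benjamini-Hochberg adjustment over all 12985 genes and a threshold of 0.05. The fit was tested on simulated data. The members and the gene lists were chosen with earlier results of these data known. Besides the members, the genes named are, from the lists, those with an adjusted p under 0.05 and the 2 with the largest change where they bear on packaging, the 5 nearest to Prm1, and Rfx2. Outside this rule are genes named as examples of a list or as its whole content, Sgca and Socs1 as chromosomal neighbours, and H2afb1 and Cdyl, named after their values were seen. Cabs1 and Rhox5 were not found under these symbols. Whole-table alternatives were a pseudocount of 0.1, no filter, a filter at 5, median-ratio scaling, eBayes without a trend, the highest entry of a symbol, a length correction, a replicate block and leaving out each sample. The crossed replicate block and the scaling to 6 late spermatid genes were chosen after seeing the data. The authors' Cuffdiff comparisons cannot be rerun from FPKM.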

Additional observations from a re-analysis of the deposited data

How the results depend on the processing

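Limma called 0 of the 10 genes lower and 0 higher with pseudocounts of 1 and 0.1, without the filter, with a filter at an FPKM of 5 (8 of the 10 genes tested), with median-ratio scaling, without a trend, with the highest entry of a symbol, with the length correction and with scaling to the 6 other late spermatid genes. A replicate block from the labels gave 3 lower (Prm1, Prm2 and Tnp1), but same-numbered samples deviated with a correlation of -0.15, the fit leaves 1 residual degree of freedom, and the numbers are not known to pair the samples. The crossed replicate block gave 0 lower and 0 higher. Leaving out each sample in turn, with the lone sample assumed to vary like the other group, gave 0 to 6 lower. Over all tested genes these fits called 433 lower and 162 higher without mutant 1, 948 and 102 without mutant 2, 167 and 17 without control 1, and 213 and 13 without control 2. The 6, without mutant 2, were Prm1, Prm2, Prm3, Tnp1, Tnp2 and H1fnt. With 1 sample left out, the log2 difference ranged from -3.46 to -0.33 for Prm1, from -3.54 to -0.18 for Prm2, from -3.06 to -0.36 for Tnp1, from -0.89 to -0.24 for Hist1h1t, from 0.024 to 0.40 for Hist1h2ba, from 0.090 to 0.42 for Brdt, from -0.89 to 0.66 for Prm3, from -2.58 to 0.12 for Tnp2, from -0.54 to 0.71 for Hils1 and from -0.92 to 0.74 for H1fnt, and the late minus early difference from -2.34 to 0.45, positive without mutant 1. Scaling to the 6 late spermatid genes moved the median of all genes from 0.032 to 0.30 and turned Prm3 to 0.15 and H1fnt to 0.18, both below that median. Over all tested genes, 327 lower and 40 higher calls became 199 and 17 without the filter, 202 and 17 at an FPKM of 5, 206 and 16 with median-ratio scaling, 230 and 15 with the length correction, 525 and 70 with the replicate block, and 17 and 0 with scaling to late genes. The causes of these changes were not tested. With 2 samples a genotype and mutant 1 apart from mutant 2, the depth of Hist1h1t and Hist1h2ba limits those genes further.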
